A study of Rattus norvegicus with 36 samples.

Results

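The genes described here encode the extracellular matrix of rat skeletal muscle and the enzymes that build, crosslink and cut it. Members were the probe sets whose single platform symbol begins with Col, Lama, Lamb, Lamc, Mmp or Timp followed by a number, or is Sparc, Bgn, Dcn, Lum, Mgp, Lox, Fn1, Spp1, Tnc, Fstl1 or P3h4. No probe set matched Fbn1, which the rule also names. In all, 75 of the 8740 probe sets qualified, and they stand for 47 genes, of which 16 had several probe sets and were represented by the one with the highest mean log2 signal over all arrays. The genes comprised 7 fibrillar collagens, 8 basement membrane collagens and laminins, 6 other collagens, 6 matrix glycoproteins, 3 small proteoglycans, 12 metalloproteinases, 3 Timp inhibitors and 2 enzymes or partners of collagen modification. Of the 47 genes, 41 (63 probe sets) were above the floor of the measurement, a signal of 129.5, on at least 4 arrays and were tested. The filter left out Col11a1, Col9a1, Lama5 and Mmp16, which were above it on 0 arrays, Col2a1 on 1 array, and Mmp13 on 2 arrays.

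RNA of muscle labelled "ta" was hybridised to 36 one-colour arrays in 6 groups. Polysomal RNA, the fraction that sediments with ribosomes loaded on it, was taken 1 h (4 arrays) and 6 h (8 arrays) after resisted contractions, and total RNA at the same times (4 and 8 arrays). Of 12 arrays of muscle for which no contractions are named, 8 have polysomal RNA in both the title and the description, and they form the polysomal control. The remaining 4 are polysomal by title only and are called the 1hr-title control. Both control groups carry a time of 1 h. Titles number the samples 1 and 2, or 1 to 4, with 2 arrays to a number, which were averaged to 1 replicate, so n is 2 or 4 numbers a group. Strain, sex, age, and whether numbers are separate animals are not given in the sources used here, so a p-value reflects how far these samples spread, and that spread may be technical. All of this is bulk tissue, in which fewer cells of a type and less RNA per cell cannot be told apart.

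Fibroblasts of muscle connective tissue secrete most of these proteins. Fibrillar collagens are assembled with small proteoglycans such as decorin (Dcn) and biglycan (Bgn) on their surface, and lysyl oxidase (Lox) crosslinks them. Laminins form the basement membrane around each fibre. Metalloproteinases cleave the matrix, Timp proteins bind and inhibit them, and matricellular glycoproteins such as Sparc, osteopontin (Spp1) and tenascin (Tnc) adjust how cells attach to it. Loading and injury of muscle are known to change matrix synthesis and turnover.

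The number of arrays limits the precision. The median signal of an array ran from 148.5 to 266.3. Of 15 muscle fibre markers on the array, 12 were above the floor on all 36 arrays, while Pvalb was above it on 34, Acta1 on 30 and Ckm on 15. Some arrays stood apart. The ratio of the 3 prime to the 5 prime actin control probe set, commonly read for RNA integrity, was 9.01 to 11.5 on the arrays of number 3 of 6 h total RNA, against 1.01 to 1.58 on numbers 1, 2 and 4. It was 2.54 to 4.48 in 6 h polysomal RNA, 2 to 4.28 in 1 h polysomal RNA, 1.58 to 3.88 in the polysomal control and 1.22 to 1.62 in 1 h total RNA. The lowest arrays of the polysomal control thus lay at the level of total RNA, and 6 h polysomal RNA began above them. The same ratio for Gapdh was 0.0742 and 0.0374 on arrays 1A and 2A of the polysomal control, where 1bA and 2bA read 0.511 and 0.363. It was 0.0702 on array 2A of 6 h polysomal RNA, where 2bA read 0.561, and 11.4 and 9.73 on number 3 of 6 h total RNA. The part of the Gapdh ratio in the results was not tested. In the 1hr-title control, array 2bA correlated at 0.932 to 0.953 with 1 h total RNA and at 0.89 to 0.918 with the 3 polysomal groups, whereas the other 3 arrays reached 0.9 to 0.929 and 0.921 to 0.97. Its actin ratio was 1.07, against 1.99 to 2.73 on its 3 companions. Values without number 3 of 6 h total RNA and without array 2bA follow the comparisons that hold them.

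Polysomal RNA 6 h after contractions was compared with that of uncontracted muscle, the question being which ribosome-bound transcripts differ after loading. The polysomal control carries a time of 1 h, so contraction and labelled time cannot be told apart in this comparison. The highest members were Timp1, an inhibitor of metalloproteinases, and Mmp10 (stromelysin-2), a secreted protease of proteoglycans and other matrix proteins. Neither passed the test. The fibrillar collagens, the laminins and the small proteoglycans lay close to control, with log2 changes from -0.37 to 0.13. No member passed (0 of 41; limma, Benjamini-Hochberg), where 23 of all 6707 probe sets did (0.343%), and 2 members had an unadjusted p under 0.05, where 380 of all probe sets (5.67%) did. The median of the members was -0.01 and that of all probe sets -0.03 on the log2 scale.

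Timp1 had signals of 2263, 1344, 3125 and 3676 in numbers 1 to 4 of 6 h polysomal RNA and of 1318, 948, 968 and 1041 in the polysomal control. All 4 exercised numbers were above all 4 controls, by a narrow gap for number 2. The log2 change was 1.20 (SE 0.36, adjusted p = 0.273; 2.3-fold on the floored scale). A dimmer probe set of the same gene gave 1039, 418, 1653 and 2365 against 230, 130, 130 and 241, a change of 2.71 (SE 0.66, adjusted p = 0.126). Both probe sets therefore separated the groups, and neither passed. Over numbers 1 and 2 alone the change of the brighter probe set was 0.64, and over numbers 3 and 4 it was 1.76.

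Mmp10 was at 224, 318, 333 and 412 in 6 h polysomal RNA and at the floor throughout the polysomal control, so the exercised mean was at least 2.43-fold higher (log2 1.28, SE 0.53, adjusted p = 0.74). In 6 h total RNA it was above the floor in numbers 2 and 4, at 490 and 674, and at the floor in numbers 1 and 3. The same gene was at 728 in number 2 of 1 h polysomal RNA and at the floor in number 1. Its level thus varied more within the total and the 1 h polysomal groups than within 6 h polysomal RNA.

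The upstream sequences of Timp1, Mmp10 and Mmp3 are shown because Timp1 and Mmp10 were the 2 highest members and Mmp3 (stromelysin-1) is a close relative of Mmp10 whose groups overlapped. They are the 250 bases before the annotated transcription start, 5′ to 3′ on the gene's strand, from RefSeq on build GRCr8. Capitals mark matches to TGANTCA, the AP-1 motif, and to TATAAA, searched on both strands.
Timp1 (chrX:3771123-3771372, minus strand): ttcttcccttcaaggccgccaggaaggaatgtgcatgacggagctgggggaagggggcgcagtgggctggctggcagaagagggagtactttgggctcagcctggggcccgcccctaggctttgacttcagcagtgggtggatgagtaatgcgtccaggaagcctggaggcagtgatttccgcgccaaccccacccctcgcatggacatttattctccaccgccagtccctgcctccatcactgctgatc
Mmp10 (chr8:12974457-12974706, plus strand): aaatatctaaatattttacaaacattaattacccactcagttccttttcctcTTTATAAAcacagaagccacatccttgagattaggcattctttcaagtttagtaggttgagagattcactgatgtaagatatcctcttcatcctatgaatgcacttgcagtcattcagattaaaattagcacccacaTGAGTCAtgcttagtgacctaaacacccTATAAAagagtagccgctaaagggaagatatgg
Mmp3 (chr8:12925031-12925280, plus strand): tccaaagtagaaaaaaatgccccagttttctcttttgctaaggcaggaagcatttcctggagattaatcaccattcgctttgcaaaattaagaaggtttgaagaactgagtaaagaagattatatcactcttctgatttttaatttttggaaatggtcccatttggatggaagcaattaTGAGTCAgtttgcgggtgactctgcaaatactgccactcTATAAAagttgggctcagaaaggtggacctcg
TGANTCA matched 61 to 55 bases before the start of Mmp10 and 71 to 65 bases before that of Mmp3, and TATAAA 33 to 28 and 32 to 27 bases before them. A second stretch in Mmp10 matched TATAAA on both strands in overlapping letters. Neither motif has an exact match in the Timp1 window, and near matches were not searched in any window. RefSeq promoters were matched for 33 of the 47 members: TGANTCA was in 6 of them (18.2%; Lama3, Mmp3, Mmp7, Mmp10, Mmp12 and Mmp13), against 6.36% of all 27457 promoters of the same length, and TATAAA in 10 (30.3%) against 13.1%. These are letter matches in one window each. Mmp3, with the same motif in nearly the same place as Mmp10, had signals of 146 to 225 in 6 h polysomal RNA and of 155 to 248 in the polysomal control.

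By role, no fibrillar collagen had a log2 change above 0 in 6 h polysomal RNA (0 of 5 tested). Col5a1, a collagen that regulates fibril diameter, had the smallest p among them, with 4269, 3926, 3294 and 2398 against 4466, 4306, 3884 and 2896 in control. The ranges overlapped and the change was -0.18 (SE 0.24). Of the other collagens, Col12a1, which binds to fibril surfaces, was at 168, 175, 189 and 173 against 162, 131, 130 and 153, close above the floor, with no overlap and a change of 0.30 (SE 0.16, adjusted p = 1). Together with Timp1 and Mmp10 it made 3 of 41 members (7.32%) whose exercised numbers were all above control, where 2.64% of all probe sets were; 0 members were all below control, where 1.95% were.

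Fibronectin (Fn1), a cell-binding glycoprotein, was at 899, 783, 1552 and 1154 against 801, 581, 1072 and 835, a change of 0.40 (SE 0.44) with overlapping groups. Lox, at 1292, 2245, 4949 and 4213 against 1288, 1986, 3092 and 3139, had a change of 0.32 (SE 0.45). In both genes numbers 3 and 4 were the higher ones in exercised and control muscle alike. Lumican (Lum), a small proteoglycan, was at 542, 470, 292 and 260 against 611, 371, 453 and 346, and Lamb2, a laminin chain, at 2120, 1918, 1503 and 1550 against 2323, 2177, 1849 and 1418. Their changes of -0.22 (SE 0.34) and -0.12 (SE 0.18) were smaller than the spread between numbers. The lowest change of all members was that of Timp2, an inhibitor with a broad range of targets, at 2683, 3159, 1443 and 2003 against 2260, 3061, 3468 and 4573 (-0.54, SE 0.26, adjusted p = 0.897). Its number 3 after contractions averages arrays at 526 and 3960, of which the second is above number 3 of the control. The part of number 3 in this change thus rests on 1 array. Number 4 was lower on both arrays, at 1916 and 2094 against 4630 and 4517 in control. The change was 0.15 over numbers 1 and 2 and -1.23 over numbers 3 and 4.

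**Figure D1:**
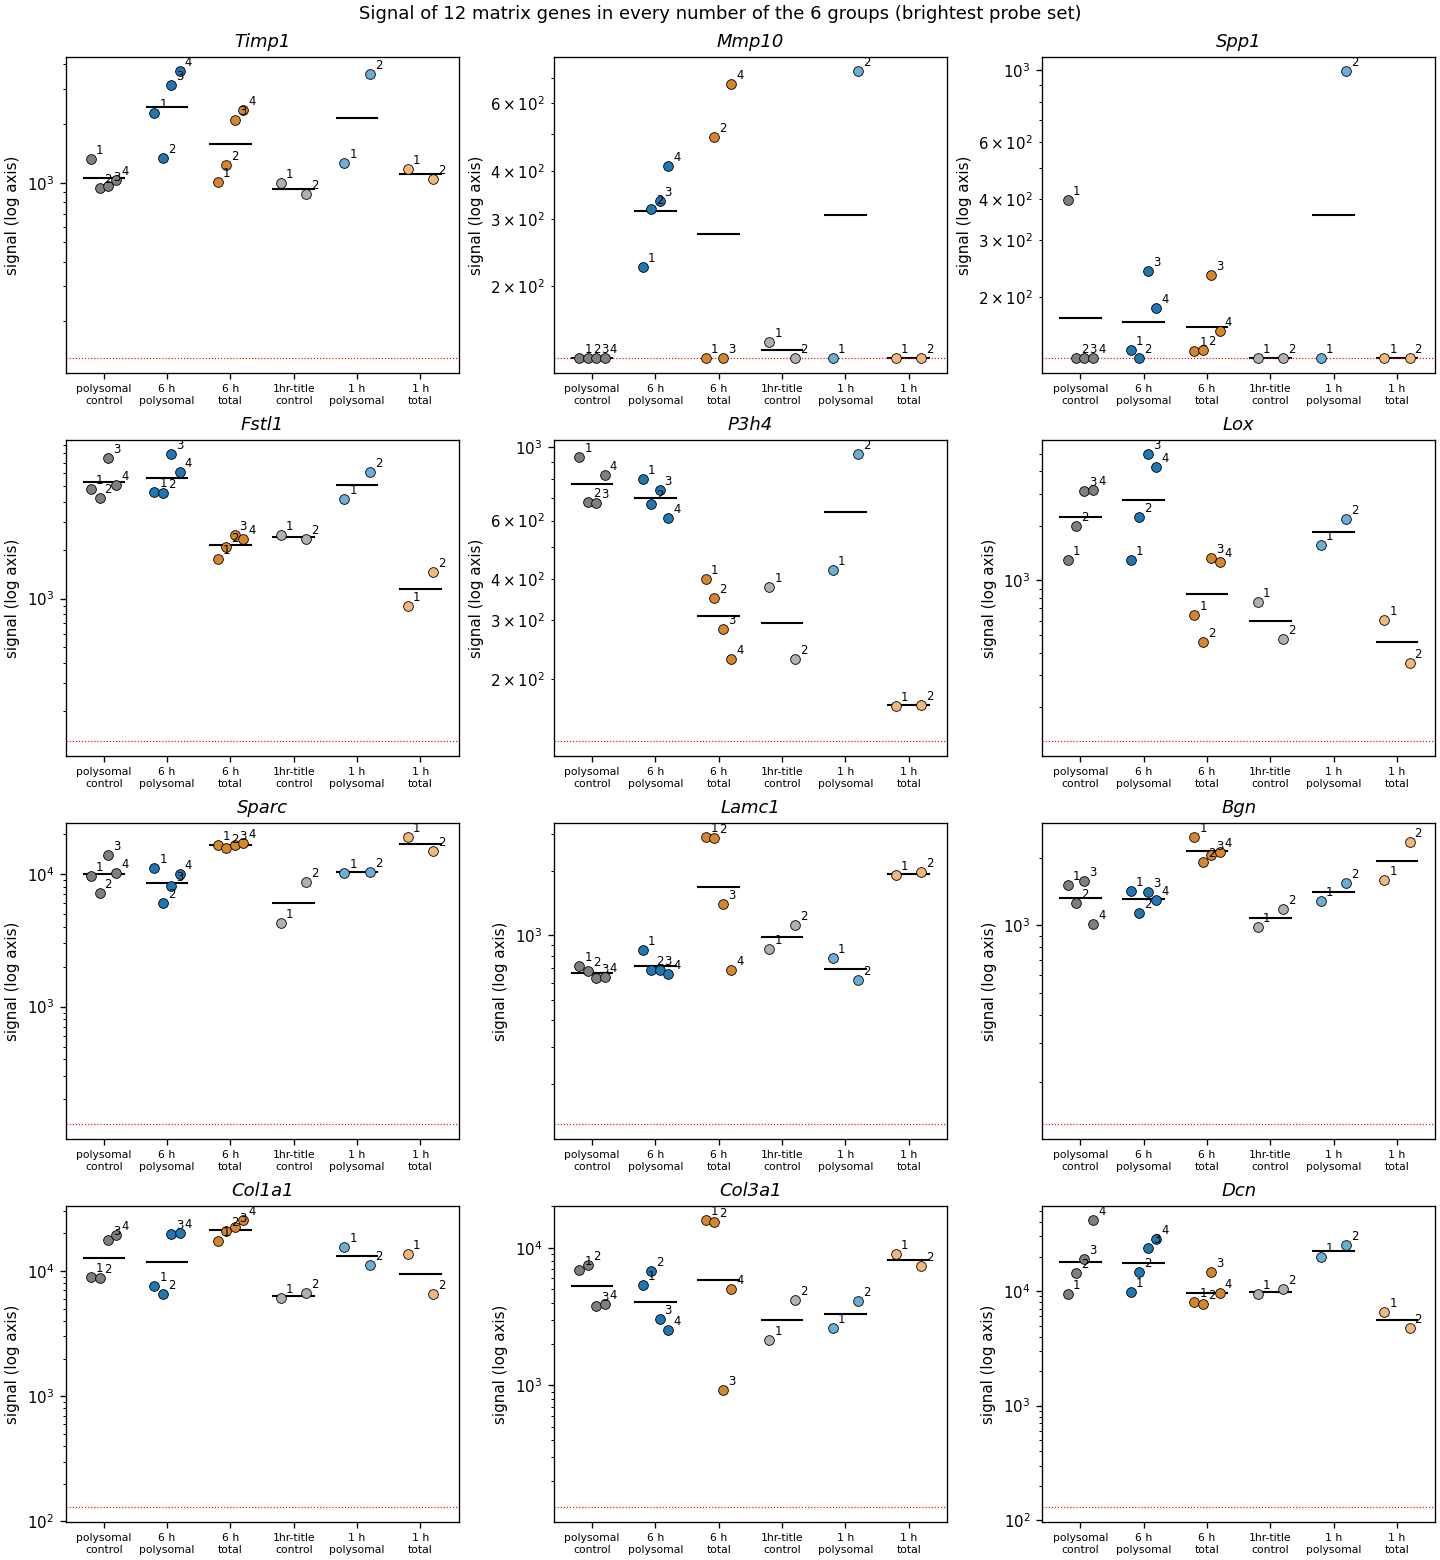
Signal on a log axis for 12 matrix genes (brightest probe set) in the 6 groups; each point is 1 number (mean of 2 arrays, labelled by its number), black bars are geometric means and the dotted red line is the floor of 129.5. Timp1 lies above control in all 4 numbers of 6 h polysomal RNA (1344 to 3676 against 948 to 1318), and Mmp10 is at the floor in the polysomal control.

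At 1 h, polysomal RNA of contracted muscle was compared with the 1hr-title control, with 2 numbers each. Against this control the matrix glycoproteins, small proteoglycans and collagen-modifying genes had values above 0, and no member passed the test (0 of 41, as for all 6707 probe sets, 0%; 299 of these, 4.46%, and 6 members had an unadjusted p under 0.05). All 6 matrix glycoproteins and all 3 small proteoglycans had log2 changes above 0, with medians of 1.01 and 0.82. Without array 2bA of the control 5 of the 6 (Tnc was at 0) and all 3 did, and the medians were 0.82 and 0.72. With the polysomal control in its place the glycoproteins had 4 above and 2 below 0 (median 0.46), and the proteoglycans were at 0.31 (Dcn), 0.09 (Bgn) and 0.00 (Lum). The median of all members was 0.13, and that of all probe sets -0.03. In 14 of 41 members (34.1%) both exercised numbers lay above both controls, where 12.7% of all probe sets did so, and in 5 (12.2%) both lay below, where 19% did. Without array 2bA these were 14 and 1 (15.9% and 14.4% of all probe sets), and with the polysomal control 2 (4.88%) and 1 (2.44%), where 8.25% and 7.48% of all probe sets were.

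Fstl1, a secreted glycoprotein related to Sparc, was at 4161 and 6117 after contractions and at 2486 and 2355 in the control (log2 1.06, SE 0.33, adjusted p = 0.99). P3h4, a protein of the endoplasmic reticulum that takes part in collagen crosslink formation, was at 425 and 950 against 379 and 229 (1.11, SE 0.35, adjusted p = 0.99). Decorin was at 19847 and 25431 against 9412 and 10386 (1.18, SE 0.57). In each of the 3 genes both exercised numbers were above both controls, while in P3h4 number 1 was close to the upper control. Timp1 was at 1264 and 3580 against 999 and 880 (1.18, SE 0.51), so its difference came mainly from number 2.

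Number 2 of 1 h polysomal RNA held the highest values of several genes. Spp1, a glycoprotein bound by integrins and CD44, was at 991 there and at the floor in number 1 and in both controls; its 2 arrays read 304 and 3229. Mmp10 was at 728 and 130 in numbers 2 and 1. Without number 1, 2 members passed, P3h4 (1.69, adjusted p = 0.0417) and Spp1 (2.94, adjusted p = 0.0392), as did 46 of all probe sets; without number 2 none did. The lone number left is then assumed to vary like the other groups.

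The result also depended on which control was used. Against the polysomal control, the 1 h changes of Fstl1 and P3h4 turned to -0.07 and -0.28, those of Lox and Mgp from 1.62 and 1.05 to -0.28 and -0.27, those of Dcn and Col1a1 came to 0.31 and 0.05, and that of Timp1 was 1.01 (SE 0.44, adjusted p = 0.673). Without array 2bA of the 1hr-title control the changes were 0.70 for Fstl1, 0.99 for P3h4, 0.68 for Lox, 0.68 for Mgp, 0.74 for Dcn, 0.66 for Col1a1 and 1.37 for Timp1, and again no member passed. That array and its companion read 5647 and 19102 for Dcn, 3783 and 11638 for Col1a1, and 1426 and 3890 for Fstl1.

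Of the remaining roles, Col1a1, the main chain of type I collagen, was at 15632 and 11239 against 6079 and 6635 (1.06, SE 0.55). These did not overlap, but without array 2bA number 2 of the control, at 11638, is above number 2 after contractions. Mmp2, the gelatinase of resting connective tissue, was at 615 and 1083 against 459 and 632 (0.60, SE 0.29). Lamb2 was at 1489 and 1306 against 1695 and 1730 (-0.30, SE 0.25), with both exercised numbers lower, and Col26a1 at 409 and 231 against 446 and 379 (-0.42, SE 0.38). Without array 2bA the changes of the last 3 were 0.71, -0.18 and -0.33. With all arrays none of the 4 reached an unadjusted p under 0.05.

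**Figure D2:**
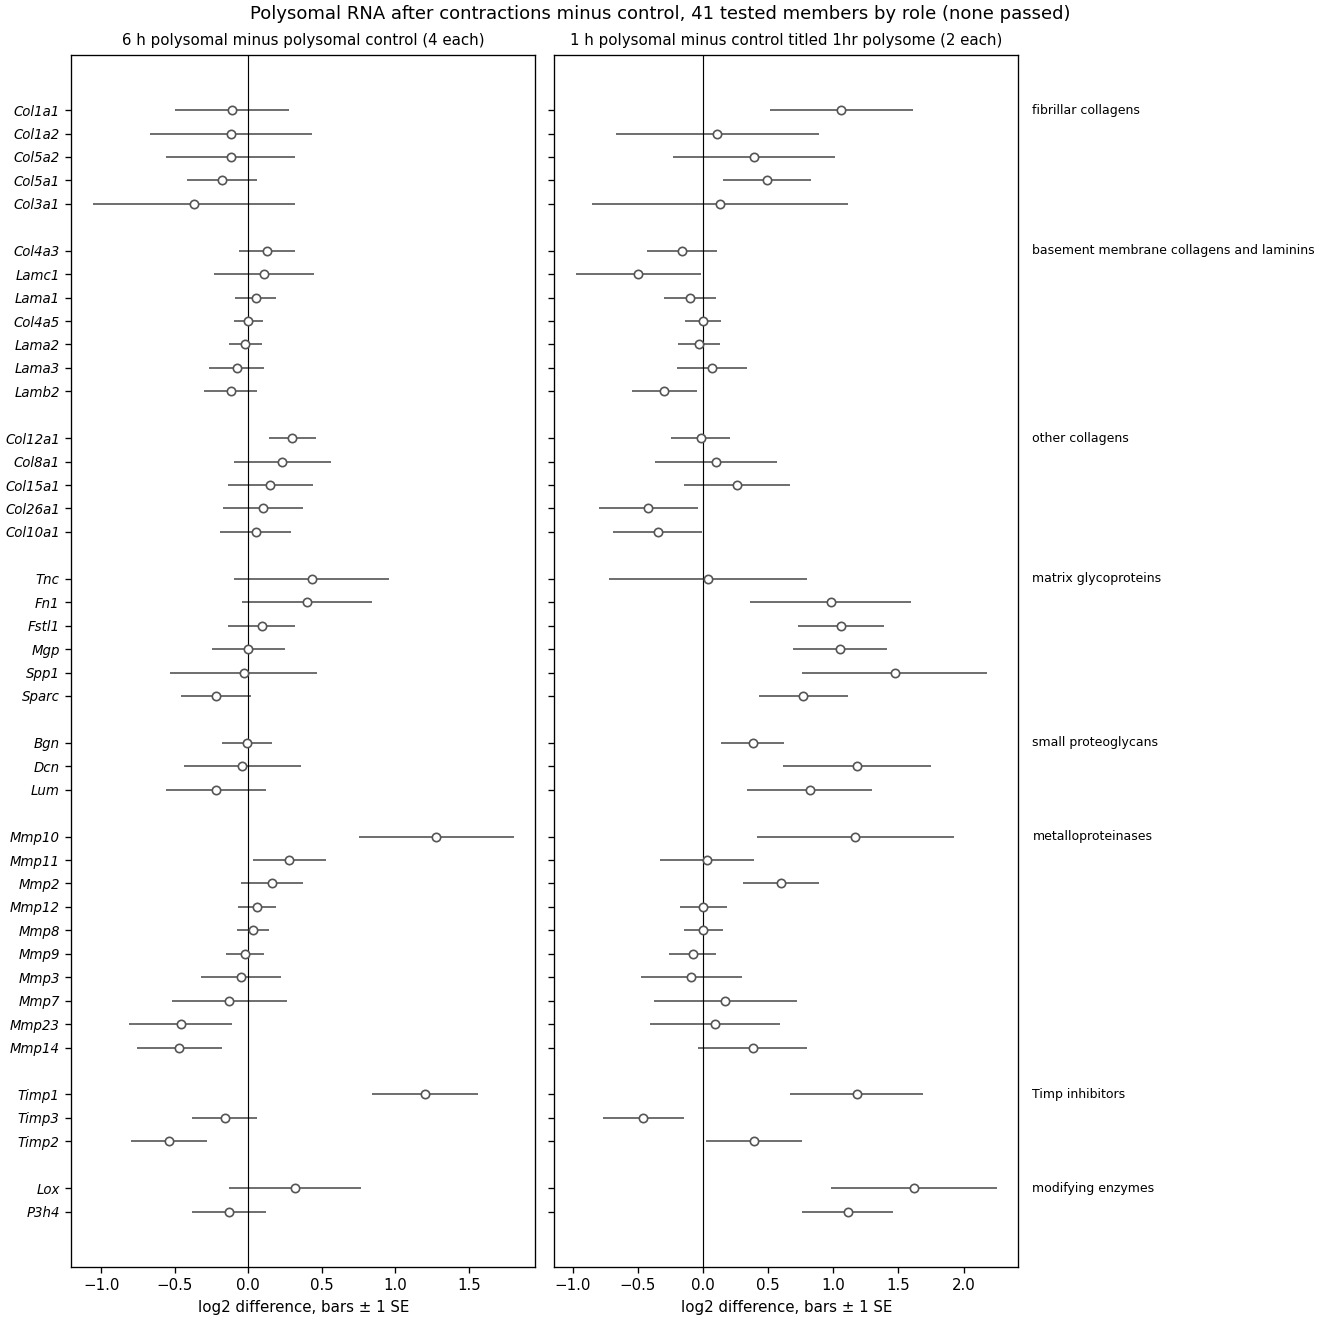
Log2 difference (points, bars ± 1 SE) of polysomal RNA after contractions minus control for the 41 tested members, by role, at 6 h against the polysomal control (left, 4 numbers each) and at 1 h against the 1hr-title control (right, 2 numbers each). No member passed; at 6 h Timp1 (1.20) and Mmp10 (1.28) stand to the right of the others, and at 1 h the members range from -0.50 to 1.62.

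The change of the polysomal response between the times, tested as a difference of contrasts, passed for no member and no probe set (0%; 173 probe sets, 2.58%, and 4 members had an unadjusted p under 0.05). The 4 were Fstl1 (-0.97, SE 0.40), P3h4 (-1.24, SE 0.43), Mgp (-1.04, SE 0.44) and Sparc (-0.98, SE 0.42), for which the 1 h difference was the larger; this contrast carries the same 2 controls as above. Without array 2bA they were -0.61 (SE 0.43, unadjusted p = 0.176), -1.13 (SE 0.41, 0.0145), -0.68 (SE 0.46, 0.157) and -1.17 (SE 0.38, 0.00785), so that Fstl1 and Mgp no longer had an unadjusted p under 0.05 in limma. Polysomal RNA at 6 h minus 1 h had 0 members called (0% of all; 366 probe sets, 5.46%, and 0 members at an unadjusted p under 0.05). In that comparison Lamb2 and Mmp14, a membrane-bound metalloproteinase, were higher at 6 h without overlap (0.33, SE 0.22, and 0.60, SE 0.36) and Lama3 was lower (-0.37, SE 0.24), 4.88% and 2.44% of the members, where 4.34% and 8.75% of all probe sets were.

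Cell type markers were read beside these responses. In 1 h polysomal RNA all 7 tested fibroblast and tendon markers had log2 changes above 0 (median 1.00), and none passed; vimentin (Vim) had the smallest p, with 1.29 (SE 0.33, adjusted p = 0.646). Their summed signal was 6174 to 13989 after contractions and 3872 to 4115 in the 1hr-title control, and Tcf21 was at the floor on all arrays. This too depended on the control. In the polysomal control the sum was 4740 to 6796, which overlaps that after contractions. All 7 were also higher in the polysomal control than in the 1hr-title control (median 0.47, Vim 0.77). The macrophage markers (8 tested, none passed) summed at 1 h to 6549 to 14037 against 4718 to 5163 in the 1hr-title control. At 6 h they summed to 7280 to 18847 against 6275 to 9780 in the polysomal control, a range that the 1 h sums overlap too. Lgals3 had the smallest p at 6 h (1.11, SE 0.38, adjusted p = 0.443), and Lyz2 was at 1.40. The list as a whole had a median change of 0.05 there, with 5 of 8 above 0. Cd74, Ptprc and C1qb were at -0.10, -0.21 and -0.08. At 6 h the fibroblast markers summed to 5619 to 10853 against 4740 to 6796 and had a median change of 0.10. Summed signals of the neutrophil markers (4 tested) were 457 to 1553 against 448 to 1329 at 6 h. Of the other marker lists (endothelium and smooth muscle, nerve, adipocyte, red cell, bone and cartilage) no tested gene passed at either time. The part of these cells in the results was not tested.

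Outside the members, 109 other matrix genes (receptors, proteoglycans, collagen-processing enzymes, the plasminogen system and growth factors of the TGF-beta family) were listed, 65 were on the array and 59 were tested. In 6 h polysomal RNA against control 2 of them rose, both receptors: Plaur, which binds urokinase at the cell surface, by 2.74 (SE 0.43, adjusted p = 0.0118), and Cd44, which binds hyaluronan and osteopontin, by 1.96 (SE 0.32, adjusted p = 0.0154). The median of the 59 was 0.09 and that of all probe sets -0.03. At 1 h against the 1hr-title control 0 of 59 passed (median 0.06). Without number 4 of 6 h polysomal RNA neither receptor passed, and 1 of the 2 passed without number 1 of it or without number 3 or 4 of the control. Acan, Nid1, Plg and Has2 were at the floor on all arrays.

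Polysomal RNA was next compared with total RNA of the same time, which asks which transcripts are represented more or less in the polysomal fraction. This was where members passed. At 6 h, Fstl1, P3h4 and Lox were higher and Sparc, Bgn, Lamc1 and Col12a1 lower in polysomal RNA, which makes 7 of 41 members (17.1%), where 588 of all probe sets passed (8.77%: 3.77% higher and 4.99% lower). The median of the members was -0.12 and that of all probe sets -0.16. Of the roles, both modifying genes were higher, and the basement membrane members and the other collagens had 1 lower call each. All 7 and all 5 of these had values below 0, as did the median of all probe sets. Without number 3 of 6 h total RNA 5 of 7 and 4 of 5 did, with Col4a3 at 0.09, Lama1 at 0.03 and Col26a1 at 0.11. None of the 5 fibrillar collagens, 10 metalloproteinases or 3 Timp inhibitors passed.

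Fstl1 was at 4569, 4548, 7869 and 6127 in polysomal and at 1755, 2104, 2484 and 2360 in total RNA, with no overlap and a log2 difference of 1.38 (SE 0.23, adjusted p = 0.00403; 2.61-fold). P3h4 was at 803, 674, 741 and 609 against 399, 351, 282 and 230, again without overlap (1.19, SE 0.25, adjusted p = 0.011; 2.28-fold). Lox was at 1292, 2245, 4949 and 4213 against 647, 455, 1322 and 1270, so that its lowest polysomal number lay just below its highest total number (1.73, SE 0.45, adjusted p = 0.0312; 3.32-fold). In every number the polysomal value exceeded the total value of that number for all 3 genes, although no label pairs same-numbered samples of the 2 fractions.

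In the opposite direction, Sparc, a collagen-binding glycoprotein, was at 10986, 5993, 8036 and 9962 in polysomal and at 16419, 15574, 16501 and 17100 in total RNA (-0.94, SE 0.24, adjusted p = 0.0287; 1.92-fold lower). Bgn was at 1425, 1133, 1418 and 1306 against 2474, 1930, 2069 and 2138 (-0.71, SE 0.17, adjusted p = 0.0216). Neither overlapped. Members without overlap were 2 higher (4.88%) and 3 lower (7.32%), where 4.64% and 7.14% of all probe sets were. Lamc1, the gamma chain common to many laminins, was at 856, 687, 687 and 660 against 2891, 2875, 1407 and 690. Total RNA of number 4 thus lay within the polysomal range, and the difference of -1.23 (SE 0.34, adjusted p = 0.037) came mainly from numbers 1 and 2: it was -1.91 over those and -0.55 (adjusted p = 0.325) over numbers 3 and 4. Col12a1 was at 168, 175, 189 and 173 against 333, 330, 263 and 194 (-0.63, SE 0.16, adjusted p = 0.0275), likewise -0.95 over numbers 1 and 2 and -0.32 over numbers 3 and 4.

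Leaving out number 3 of 6 h total RNA, the one with the high actin ratio, kept all 7 members called, with adjusted p from 0.00597 to 0.0449 and 610 calls over all probe sets. Members without overlap were then 4 higher (9.76%) and 3 lower (7.32%), where 7.01% and 9.83% of all probe sets were. Leaving out other numbers reduced the members called: to 2 without number 2 of polysomal or number 1 of total RNA, to 3 without number 3 of polysomal RNA, and to 4 without number 4 of polysomal or number 2 of total RNA. The counts over all probe sets in these fits are not given here, so the reductions cannot be read as particular to the members. Without number 4 of total RNA 10 members passed, as did 1099 of all probe sets.

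Members that did not pass at 6 h included Col1a1, with 7610, 6564, 19871 and 19968 in polysomal and 17325, 20806, 22405 and 25357 in total RNA (-0.84, SE 0.39, adjusted p = 0.181). Over numbers 1 and 2 it passed (-1.43, adjusted p = 0.0185), and over numbers 3 and 4 it was -0.26 (adjusted p = 0.646). Col1a2 (-1.83), Col3a1 (-1.38) and Col5a2 (-0.99) also passed over numbers 1 and 2, with adjusted p from 0.0229 to 0.0343. Over numbers 3 and 4 they were at 1.11, 0.36 and 0.28 and did not pass. Col5a1 was at 0.25 and 0.31 over the 2 pairs. Fn1 passed over numbers 1 and 2 (-1.87, adjusted p = 0.0144) and was at 0.52 over numbers 3 and 4. Timp3, the inhibitor that binds to the matrix, was at 394, 217, 166 and 280 against 479, 383, 377 and 287 (-0.58, SE 0.22, adjusted p = 0.109). Mmp11 (stromelysin-3) was at 192, 145, 185 and 181 against 243, 187, 457 and 212 (-0.56, SE 0.25, adjusted p = 0.17). Both had a lower value in polysomal RNA in each of the 4 numbers, which no label pairs between the fractions. Without number 3 of total RNA the difference of Mmp11 was -0.28, that of Timp3 -0.58 and that of Col1a1 -0.82, while Col3a1 went from -0.51 to -1.39 (SE 0.46, adjusted p = 0.07).

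At 1 h, with 2 numbers a group, Fstl1 and P3h4 were again higher in polysomal RNA, and they were the 2 members called (4.88%), where 26 of all probe sets were (0.388%). Fstl1 was at 4161 and 6117 against 902 and 1465 (log2 2.13, SE 0.33, adjusted p = 0.0224; 4.39-fold). P3h4 was at 425 and 950 against 166 and 167 (1.93, SE 0.35, adjusted p = 0.0343; 3.82-fold). For both genes neither number overlapped, and total RNA of P3h4 lay near the floor. Leaving out a number leaves 1 in its group, so only sizes are given. Without number 2 of polysomal RNA the differences were 1.86 for Fstl1 and 1.35 for P3h4. Without number 1 they were 2.41 and 2.51. Each of the 2 genes passed in 9 of the 13 alternatives tried.

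Decorin and Lox had differences of similar size at 1 h that did not pass. Decorin was at 19847 and 25431 in polysomal and at 6612 and 4773 in total RNA (2.0, SE 0.57, adjusted p = 0.11), and Lox at 1560 and 2177 against 603 and 351 (2.0, SE 0.64, adjusted p = 0.15); the arrays of the second polysomal number of Lox read 939 and 5048. Lamc1 was at 781 and 618 against 1914 and 1986 (-1.49, SE 0.48) and Timp3 at 274 and 282 against 674 and 598 (-1.19, SE 0.31). In all 4 genes the 2 fractions did not overlap. Over the members, 9 of 41 (22%) lay above total RNA in both numbers, where 19.1% of all probe sets did, and 9 (22%) below, where 29.6% did. The change of the fraction difference between the times passed for no member and no probe set (0%; 372 probe sets, 5.55%, and 0 members at an unadjusted p under 0.05).

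**Figure D3:**
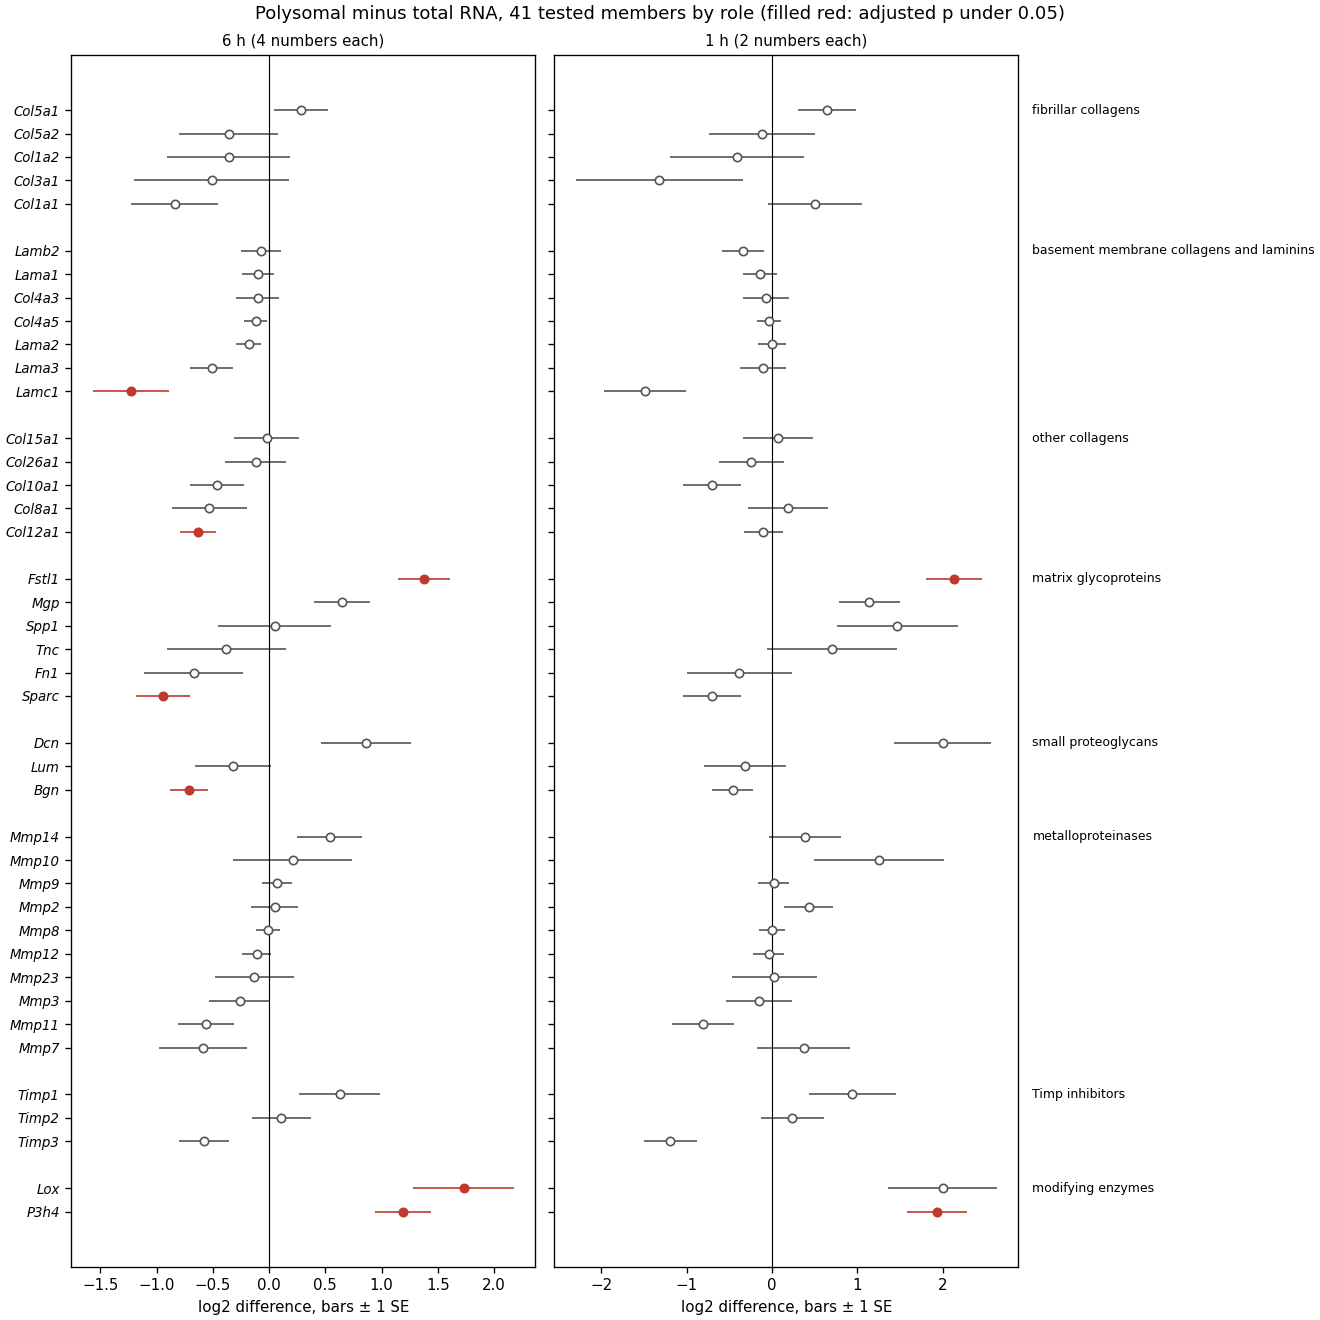
Log2 difference (points, bars ± 1 SE) of polysomal minus total RNA for the 41 tested members, by role, at 6 h (left, 4 numbers each) and 1 h (right, 2 numbers each); filled red points passed at an adjusted p under 0.05. Lox (1.73), Fstl1 (1.38) and P3h4 (1.19) lie to the right at 6 h, and Lamc1 (-1.23), Sparc (-0.94), Bgn (-0.71) and Col12a1 (-0.63) to the left.

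Of the 59 other matrix genes, 1 was higher in 6 h polysomal RNA, the collagen-binding integrin chain Itga1 (1.43, SE 0.40, adjusted p = 0.0377). The 3 lower ones were Plod2, which hydroxylates lysines of collagen (-0.94, adjusted p = 0.0326), the sheddase Adam17 (-0.73, adjusted p = 0.036) and Tgfbr3, a co-receptor of TGF-beta (-0.76, adjusted p = 0.0364). The median of the list was -0.15 and that of all probe sets -0.16. At 1 h 0 of 59 passed. Among the cell type markers, C1qc (macrophage, -0.60) and the slow myosin Myh7 (-1.47) were lower and Fabp4 (adipocyte, 1.39) was higher at 6 h, and no marker passed at 1 h. Their part in the results, and that of the actin ratio given above, was not tested.

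Probe sets of the same gene did not always give the same direction of the fraction difference. Of the 12 genes with several tested probe sets, 5 had both signs at 6 h and 4 at 1 h. Over all 63 tested member probe sets, 12 passed at 6 h (4 higher, 8 lower) and 4 at 1 h (4 higher). The probe sets of Lox lay farthest apart at 6 h, by 2.9, and those of Sparc at 1 h. The brightest Sparc probe set, rc_AA892248_at, was lower in 6 h polysomal RNA as given above, whereas rc_AA946313_s_at was at 15280, 12152, 14862 and 13209 against 9398, 7695, 3965 and 6381 and was called higher (1.08, SE 0.25, adjusted p = 0.0192). At 1 h the same pair gave -0.70 and 1.79, and a further probe set, rc_AA891204_s_at, gave -2.26, a gap of 4.05 within the gene. The direction for Sparc is therefore not settled by these arrays.

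Lox too had 1 probe set called in each direction at 6 h. S66184_s_at was called higher (1.73), and the dimmer S77494_s_at was called lower, at 214, 182, 313 and 295 in polysomal against 769, 691, 377 and 457 in total RNA (-1.17, SE 0.27, adjusted p = 0.0168). The 2 others gave 0.43 and -0.68 and did not pass. At 1 h all 4 Lox probe sets were above 0, from 0.10 to 2.0. The second P3h4 probe set gave 0.41 at 6 h, without passing, and passed at 1 h (1.59, SE 0.31, adjusted p = 0.0409). The second Fstl1 probe set gave 0.87 at 6 h and -0.40 at 1 h, neither called, and it was at the floor in number 3 of 6 h total RNA.

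Bgn, by contrast, was lower with both of its probe sets at 6 h, and both passed (-0.71 and -1.27, the latter with SE 0.29 and adjusted p = 0.0158). Of Lamb2, the brighter probe set was at -0.07 and the dimmer, rc_AA900848_at, was lower in polysomal RNA (-0.93, SE 0.20, adjusted p = 0.0118), with 704, 511, 512 and 603 against 1445, 1306, 1086 and 716. Of the 4 tested fibronectin probe sets 1, the dim U82612cds_at, passed (-0.79, adjusted p = 0.0495), and all 4 had values below 0. Both Timp1 probe sets had values above 0 at each time, and neither passed. The files used here do not give where on its transcript a probe set lies.

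**Figure D4:**
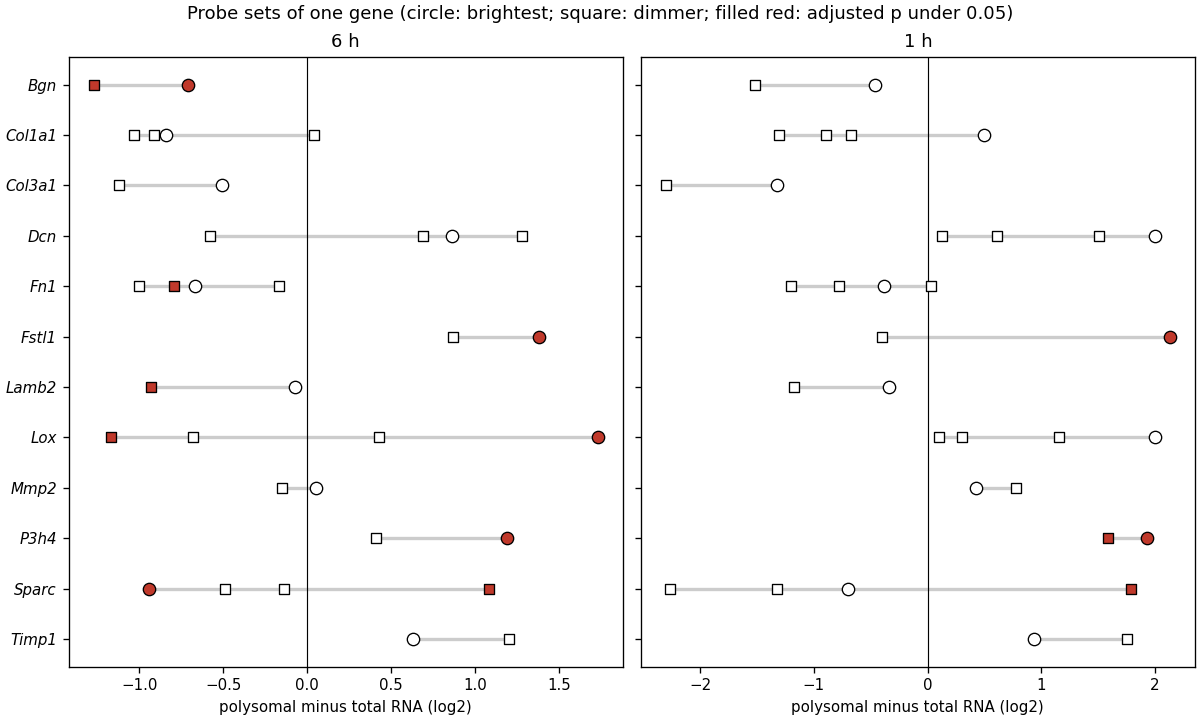
Log2 difference of polysomal minus total RNA for each tested probe set of the 12 genes with more than 1, at 6 h (left) and 1 h (right); circles are the brightest probe set, squares the dimmer ones, filled red those with an adjusted p under 0.05. Lox and Sparc each have 1 probe set called higher and 1 called lower at 6 h, whereas both Bgn probe sets lie to the left.

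Across the 63 member probe sets the fraction difference at 6 h correlated with that at 1 h at Pearson r 0.766, against 0.508 over all tested probe sets. The 2 differences share no arrays, while every point shares its probe sequences, and probe sets of one gene are not independent. The deviation of number 3 of 6 h total RNA from numbers 1, 2 and 4 also correlated with the 1 h fraction difference, at Pearson r 0.448 and Spearman rho 0.368 over the 63 (0.4 and 0.272 over all). That number was low for several collagens: Col3a1 was at 930 there and at 15841, 15402 and 4994 in numbers 1, 2 and 4, Col1a2 at 2403 against 17009, 13835 and 6848, and Col5a2 at 404 against 2243, 2036 and 810.

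Total RNA at 1 h was set against the 1hr-title control, the only total RNA comparison with uncontracted muscle that time and naming allow, although the fraction of that control is given by its title only. No member passed (0 of 41), where 5 of all probe sets did (0.0745%), and 8 members and 745 probe sets (11.1%) had an unadjusted p under 0.05. Sparc was at 18817 and 14883 against 4225 and 8619 (1.47, SE 0.34), and Fstl1 at 902 and 1465 against 2486 and 2355 (-1.07, SE 0.33). In both genes the groups did not overlap. Without array 2bA 3 members passed, Sparc (1.65, adjusted p = 0.0177), Bgn (1.00, adjusted p = 0.0423) and Fstl1 (-1.44, adjusted p = 0.0429), as did 202 of all probe sets. The dimmer Sparc probe set rc_AA946313_s_at then passed in the other direction (-1.27, adjusted p = 0.0415). With the polysomal control in its place 9 members passed, 3 higher and 6 lower, of 564 probe sets: Lamc1, Mmp11 and Timp3 higher, and Dcn, Fstl1, Lox, Mgp, Mmp14 and P3h4 lower. That comparison sets total against polysomal RNA, so contraction and fraction cannot be told apart in it. The same holds with the 1hr-title control if its title is right. Its arrays other than 2bA correlated at 0.921 to 0.97 with the polysomal groups. For the members called without array 2bA, polysomal minus total RNA at 1 h had the opposite sign: -0.70 (Sparc), -0.46 (Bgn) and 2.13 (Fstl1). The dimmer Sparc probe set gave 1.79. These differences share the 1 h total arrays.

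The 2 control groups were compared with each other. No member and no probe set passed (0%), and 7 members and 367 probe sets (5.47%) had an unadjusted p under 0.05. All 7 were higher in the polysomal control: Lox (1.90, SE 0.55), Mmp14 (1.45, SE 0.36), P3h4 (1.39, SE 0.30), Mgp (1.32, SE 0.31), Fstl1 (1.13, SE 0.29), Col5a1 (0.78, SE 0.30) and Sparc (0.72, SE 0.30). Matrix Gla protein (Mgp), an inhibitor of calcification, was at 13898, 9352, 12995 and 14544 in the polysomal control and at 5267 and 4779 in the 1hr-title control. Mmp14 was at 3305, 2876, 1537 and 1589 against 975 and 664. In both genes all polysomal controls were higher, as in 9 of 41 members (22%), where 6.89% of all probe sets were, and in 5 members (12.2%) all were lower, where 11% were. Without array 2bA the differences were 0.96 for Lox, 1.40 for Mmp14, 1.27 for P3h4, 0.96 for Mgp, 0.77 for Fstl1, 0.85 for Col5a1 and 0.90 for Sparc, and 12 members were all higher and 1 all lower, where 7.1% and 7.01% of all probe sets were. This comparison and the 1 h polysomal response share the 1hr-title control. The response was 1.62 for Lox, 0.38 for Mmp14, 1.11 for P3h4 and 1.05 for Mgp.

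Total RNA at 6 h was set against total RNA at 1 h. No member passed (0 of 41), where 4 of all probe sets did (0.0596%), and 6 members and 517 probe sets (7.71%) had an unadjusted p under 0.05. Col1a1 was at 17325, 20806, 22405 and 25357 at 6 h and at 13535 and 6518 at 1 h (1.18, SE 0.48, adjusted p = 0.597). Fstl1 was at 1755, 2104, 2484 and 2360 against 902 and 1465 (0.91, SE 0.29, adjusted p = 0.5), and P3h4 at 399, 351, 282 and 230 against 166 and 167 (0.89, SE 0.30, adjusted p = 0.553). Timp3 was at 479, 383, 377 and 287 against 674 and 598 (-0.76, SE 0.27, adjusted p = 0.553). In each of the 4 genes the times did not overlap, as read by the brightest probe set. Of the 12 genes with several tested probe sets, 7 had both signs in this comparison. The second Fstl1 probe set had arrays at 1975, 2088, 1663, 1739, 87, 84, 146 and 552 at 6 h. At 1 h its arrays were at 1159, 1058, 1255 and 1011. Members without overlap were 7 of 41 higher (17.1%) and 1 lower (2.44%), where 7.25% and 5.87% of all probe sets were. Without number 3 of 6 h total RNA the changes were 1.15 for Col1a1, 0.84 for Fstl1, 0.93 for P3h4 and -0.76 for Timp3. The dimmer probe sets then gave 0.58 to 1.33 for Col1a1, -0.17 for Fstl1 and 0.79 for P3h4. Again no member passed, 11 had an unadjusted p under 0.05, and 9 were higher and 3 lower without overlap, where 9.26% and 10.7% of all probe sets were.

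The smallest p of the remaining roles in total RNA belonged to Col12a1 (333, 330, 263 and 194 against 210 and 182; 0.49, SE 0.20), decorin (8096, 7773, 14556 and 9681 against 6612 and 4773; 0.79, SE 0.49), Mmp7 (259, 362, 939 and 423 against 327 and 180; 0.86, SE 0.48) and Lama2 (161, 174, 130 and 130 against 130 and 130; 0.18, SE 0.14). Decorin alone of these did not overlap between the times. The highest values of decorin, by its brightest probe set, and of Mmp7, the protease matrilysin, were those of number 3. The decorin probe set Z12298cds_s_at was lowest in number 3, with arrays at 759 and 272. Without that number the changes were 0.50 for Col12a1, 0.59 for decorin, 0.49 for Mmp7 and 0.24 for Lama2. Lama2, a chain of the main laminin of muscle, was above the floor in total RNA only in numbers 1 and 2 of 6 h.

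Within groups, numbers 3 and 4 differed from numbers 1 and 2 in many members. The titles of their arrays also differ in form (1A and 1bA, but 3aA and 3bA). Col1a1 in polysomal RNA was at 7610 and 6564 in numbers 1 and 2 and at 19871 and 19968 in numbers 3 and 4 after contractions, and at 8905 and 8749 against 17770 and 19262 in control. Col3a1 ran the other way, with 5321 and 6735 against 3016 and 2530 after contractions and 6891 and 7440 against 3774 and 3934 in control. For Col1a1 this is the brightest probe set, and the others did not all follow it. Z78279_g_at was at 6203, 6657, 7503 and 6803 after contractions and at 6499, 6788, 7117 and 6245 in control, and Z78279_at was at 2838, 3656, 2331 and 1978 in control, lower in numbers 3 and 4 as Col3a1 was.

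In both the polysomal control and 6 h polysomal RNA, 7 members were higher in numbers 3 and 4 without overlap (Col1a1, Col1a2, Dcn, Fn1, Fstl1, Lox and Mmp2) and 7 were lower (Col3a1, Col5a1, Col5a2, Lamb2, Lamc1, Mmp14 and Mmp23). In 6 h total RNA 4 of the first 7 (Col1a1, Dcn, Fstl1 and Lox) and 5 of the second 7 kept that direction, while Col1a2 and Fn1 had the opposite one. Members without overlap between these pairs of numbers were 41.5% in control, 53.7% in 6 h polysomal and 70.7% in 6 h total RNA, where 42.9%, 39.1% and 49.2% of all probe sets were. Timp1 did not share the pattern in control (1318 and 948 against 968 and 1041), whereas after contractions numbers 3 and 4 were the higher ones in polysomal RNA (2263 and 1344 against 3125 and 3676) and in total RNA (1012 and 1239 against 2094 and 2335). Whether the pairs of numbers are separate batches is not given in the sources used here, and their part in the results was not tested beyond the values for each pair above.

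**Figure D5:**
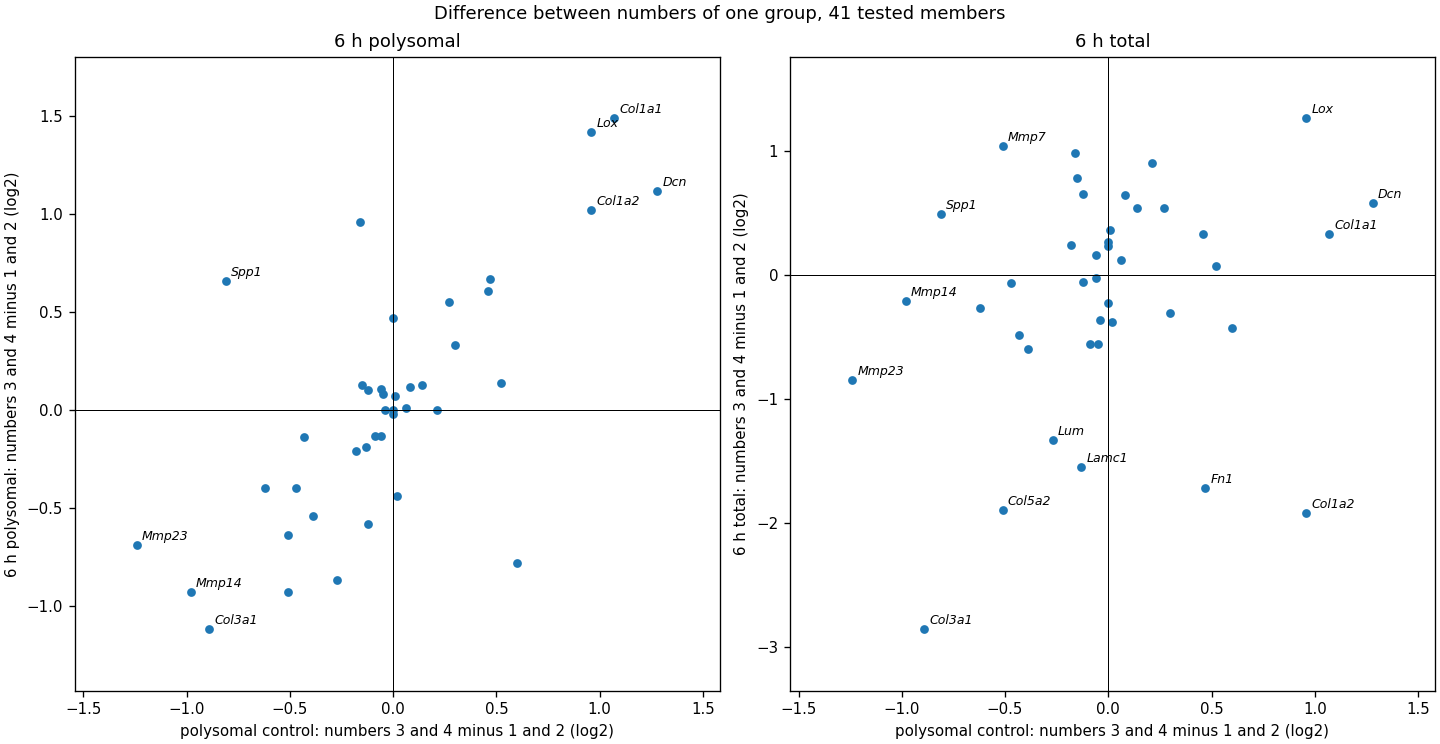
Log2 mean of numbers 3 and 4 minus that of numbers 1 and 2 for the 41 tested members, in the polysomal control (x axis, both panels) against 6 h polysomal RNA (left) and 6 h total RNA (right); each point is a gene. In the left panel Col1a1, Lox, Dcn and Col1a2 are at the upper right and Col3a1, Mmp14 and Mmp23 at the lower left, and in the right panel Col1a2 and Fn1 lie below 0.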

How the data were processed

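Rat muscle RNA was measured on 36 one-colour arrays. The values are intensity signals that the authors deposited in 1 table, on a linear scale, 1 per probe set and array. Scaling had been done before deposit, since array means trimmed by 2% lay between 801 and 801.9. The software, the background correction and the summary method are not given in the sources used here, nor is a target of the scaling. Of 8799 probe sets, 59 controls were removed. A floor was set at the 40th percentile of all values, 129.5, lower signals were raised to it before taking log2, and tests covered the 6707 probe sets that exceeded it on 4 arrays or more. A floor lowers the apparent change of dim genes. The 2 arrays of a number were averaged (correlation 0.914 to 0.984, against 0.819 to 0.979 for the 612 other pairs, so none duplicates another). Symbols came from the platform annotation; all 47 members were found in a table of current rat genes by Entrez identifier.

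All comparisons were two-sided contrasts of 1 limma model (limma 3.58.1, R 4.3.3) over the 18 replicates in 6 groups, with 12 residual degrees of freedom, Benjamini-Hochberg adjustment over 6707 probe sets and a threshold of 0.05. The procedure was tested on simulated data. The members and all gene lists were chosen with earlier results of these data known. Named members were those called in any comparison and, in each role, the one with the smallest p in 4 comparisons: the 2 polysomal responses, the 6 h fraction difference and 6 h against 1 h total RNA. Other members were named after their values were seen. Same-numbered samples of 6 h polysomal RNA and the polysomal control deviated together (correlation of deviations 0.431 to 0.538), so the numbers pair there by the data, not by a label. Promoters were 250 bases before the start from RefSeq, build GRCr8. The alternatives are given with their effects in the closing section.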

Additional observations from a re-analysis of the deposited data

Results flagged for a closer look

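In 118 sets of 4 numbers (a member in a group), 11 had a highest or lowest number set apart from the other 3 by Dixon's criterion. Its nominal rate of 1 in 20, or 5.9 sets, holds for values without a floor, so it does not measure chance here. Of the 11, 6 rest on a single number above the floor while the others lie at it, printed as 130. Such a set always meets the criterion. In the polysomal control, Spp1 was at 398 in number 1, Mmp8 at 141 in number 1 and Lama2 at 138 in number 2. Mmp8 was at 155 in number 1 and Lama3 at 131 in number 4 of 6 h polysomal RNA, and Mmp9 at 134 in number 1 of 6 h total RNA.

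The other 5 involve measured levels, except that the Mmp12 values beside its high number lie at or just above the floor. Mmp2 was at 578 in number 2 of the polysomal control, where the others were at 794 to 834, and Mmp7 at 184 in number 4, where the others were at 374 to 387. Lamc1 was at 856 in number 1 of 6 h polysomal RNA, where the others were at 660 to 687. In number 3 of 6 h total RNA, the number with the high actin ratio, Col10a1 was at 760 against 340 to 370 and Mmp12 at 195 against 130 to 137. The cause of these values was not tested.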

How the results depend on the processing

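No named member changed direction while called, as read by its brightest probe set. Dimmer probe sets of Lox and Sparc were called in the opposite direction at 6 h, as given above. Counts in this section are of members or listed genes. Where no count over all probe sets stands beside them, they do not show a change particular to the members. With all 36 arrays and the number as a random block, the members called were 3 between the controls, 5 for the 1 h fraction difference, 1 for the 6 h polysomal response (Timp1, adjusted p = 0.0121) and 2 for 1 h total RNA against the 1hr-title control, and of the other matrix genes 5 (6 h response) and 8 (6 h fraction difference). With only the groups compared they were 0 for the 1 h and 2 for the 6 h fraction difference (128 of all probe sets, against 588), 1 for the 6 h response (Mmp10, adjusted p = 0.027) and 0 other matrix genes at the 6 h fraction difference. Scaling by the 75th percentile left 4 members and 1 other matrix gene at the 6 h fraction difference, and quantile normalization 1 other matrix gene. Without the filter on dim probe sets no other matrix gene passed in the 6 h response (0) or the 6 h fraction difference (0). Over every probe set 12 (6 h) and 4 (1 h) fraction differences passed.

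Chosen after seeing the data, numbers 3 and 4 alone left 1 member at the 6 h fraction difference, 0 other matrix genes there and 0 in the 6 h response; numbers 1 and 2 alone gave 9 and 0 other matrix genes. Also chosen so, leaving out array 2bA gave 3 members for 1 h total RNA. The other control group gave 9 there and 1 other matrix gene in the 6 h response. With the replicate block, members called were 4 for the 1 h fraction difference (adding Dcn and Lox), and 8 other matrix genes passed at the 6 h fraction difference, where the numbers did not pair by the check (0.0726 to 0.248). In the 6 h response, where they did, the block gave 33 calls against 23 and changed no member's call.

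Leaving out 1 number in turn gave 0 to 2 members for the 1 h response, 0 to 4 for the 1 h and 2 to 10 for the 6 h fraction difference, and 0 to 2 and 0 to 6 other matrix genes in the 6 h response and fraction difference. Fstl1 passed at 6 h in 18 of 19 alternatives, P3h4 in 17, Bgn in 13, Lox and Sparc in 12, Lamc1 in 11 and Col12a1 in 6. Signals near the floor bound what Mmp10, Spp1, Lama2 and Col12a1 can show.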
